A study of Danio rerio with 72 samples.

Results

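The genes fzd10, fzd7b, wnt5b and notum1b encode 2 Wnt receptors, 1 Wnt ligand and 1 secreted Wnt modulator, and their expression was followed in zebrafish posterior presomitic mesoderm, the unsegmented tail-end tissue that gives rise to somites. All probe sets whose annotated symbol is 1 of these genes were taken, which gave 6 of the 15502 probe sets that are not controls, for 4 of 8793 genes that have a probe set of 1 symbol. They are Dr.8067.1.S1_at and Dr.23450.1.S1_s_at for fzd10, Dr.5454.1.S2_at and Dr.5454.1.S1_at for fzd7b, Dr.389.1.S1_at for wnt5b and Dr.23207.1.A1_at for notum1b. For the genes with a pair of probe sets, the first named has the brighter signal and the second the dimmer, and they are called so here. 1 further probe set annotated to fzd7b together with other genes was not used. All 6 lay above the array median on all 72 arrays and passed the filter on dim probe sets.

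The Wnt pathway signals between cells. Wnt ligands bind Frizzled receptors, and in the branch that works through beta-catenin this lets beta-catenin enter the nucleus and act with Tcf proteins on target genes, while other branches steer cell movement and polarity. In the vertebrate tail bud, Wnt signalling maintains the posterior progenitors and is known to act together with Fgf and Notch signalling and against retinoic acid during somite formation. fzd10 and fzd7b are Frizzled receptors, wnt5b is a ligand best known for the polarity branch in zebrafish gastrulation and tail extension, and Notum enzymes inactivate Wnt ligands outside the cell by removing their lipid group.

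The 72 arrays form 19 groups, all from embryos raised at 24 °C to the stage of 12 somites. Embryos of the AB line were incubated for 1.5 h or 3 h in retinoic acid (RA; 4 and 3 arrays), in DAPT (3 and 2 arrays), which blocks gamma-secretase and with it the cleavage that activates Notch receptors, or in the solvent DMSO, with separate DMSO groups of 4 arrays for each drug and time. Heat-shocked groups of 4 arrays each carried transgenes under the heat-inducible hsp70 promoter, which acts throughout the embryo and not in the presomitic mesoderm alone. Tg(hsp701;dnfgfr1-EGFP) embryos, which make a dominant-negative Fgf receptor, were dissected 30 min or 1 h after a 30 min shock at 37 °C. Tg(hsp:70:dkk1-gfp), Tg(hsp:70:DeltaTcF-gfp) and Tg(hsp:70:wnt8a-gfp) embryos, which make a Wnt inhibitor, a truncated Tcf and a Wnt ligand, were dissected at 1 h. Heat-shocked wild-type embryos were dissected at 30 min or 1 h. Embryos with both Tg(UAS:myc-notch1a-intra) and Tg(hsp70;gal4VP16), which make the active part of Notch1a, and controls with Tg(hsp70;gal4VP16) alone had a 1 h shock and were dissected 45 min or 90 min later. Arrays of a group are labelled as biological replicates, and the sources used here do not give how many embryos went into an array.

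The labels were checked on the arrays. dkk1b had a mean log2 signal of 13.05 in the libraries labelled dkk1 and 12.81 in those labelled DeltaTcf, against 5.53 in the wnt8a and 5.44 in the 1 h wild-type libraries, so the DeltaTcf libraries are named by their label only. Of the libraries labelled notch1a-intra at 45 min, replicates 1 and 3 had notch1a at 11.64 and 11.83, and replicates 2 and 4 at 8.00 and 8.29, against 7.20 to 8.46 in gal4. wnt8a has no probe set of its own here, and its transgene was not checked. Of 13 tail bud and presomitic mesoderm markers measured, all but evx1 lay above the array median on average. Mean correlation with the other arrays of the group was lowest, at 0.932, for both DAPT 3 h arrays and for replicate 1 of DAPT 1.5 h.

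Levels are log2 of the deposited MAS5 signal plus 16 after quantile normalization, so the lowest value possible is about 4. A probe set's brightness depends on its probes as well as on its transcript, so no gene's level is set against another's. The brighter fzd10 probe set was highest in wild type at 30 min, 11.71 ± 0.11 (SD, n = 4), and lowest after 3 h of RA, 9.60 ± 0.01 (SD, n = 3). In the order of its 19 group means, neighbours overlapped except at 3 of 18 steps. The first was between the 1.5 h DMSO controls for DAPT and dkk1, but DeltaTcf, further down, reached 11.00 and overlapped those controls. The later steps set DAPT 3 h and both RA groups, and then the RA groups, below all other groups. The brighter fzd7b probe set spanned less, with its highest mean of 10.94 ± 0.09 (SD, n = 4) in the 3 h DMSO controls for RA and its lowest of 9.32 ± 0.43 (SD, n = 2) after 3 h of DAPT. Arrays of neighbours did not overlap at 2 of its 18 steps, below that DMSO group and above the pair formed by RA 1.5 h and DAPT 3 h. Neither step set groups apart from all others, as notch1a-intra at 45 min reached 11.03 and gal4 at 90 min fell to 9.61.

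For wnt5b the highest mean was 8.89 ± 0.37 (SD, n = 4) in notch1a-intra at 45 min and the lowest 6.93 ± 0.09 (SD, n = 3) after 3 h of RA. All 18 pairs of neighbours in its order overlapped. notum1b ran in another order, with 9.77 ± 0.23 (SD, n = 4) in the 1.5 h DMSO controls for RA at the top and 7.64 ± 0.18 (SD, n = 4) in notch1a-intra at 90 min at the bottom, and again all 18 neighbouring pairs overlapped. The 16 DMSO arrays had notum1b between 9.06 and 10.50, the 8 heat-shocked wild-type arrays between 8.05 and 9.22, and the 8 gal4 arrays between 7.55 and 8.63. These controls differ in DMSO, time, heat shock, its length and transgene at once, and these cannot be told apart.

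**Figure D1:**
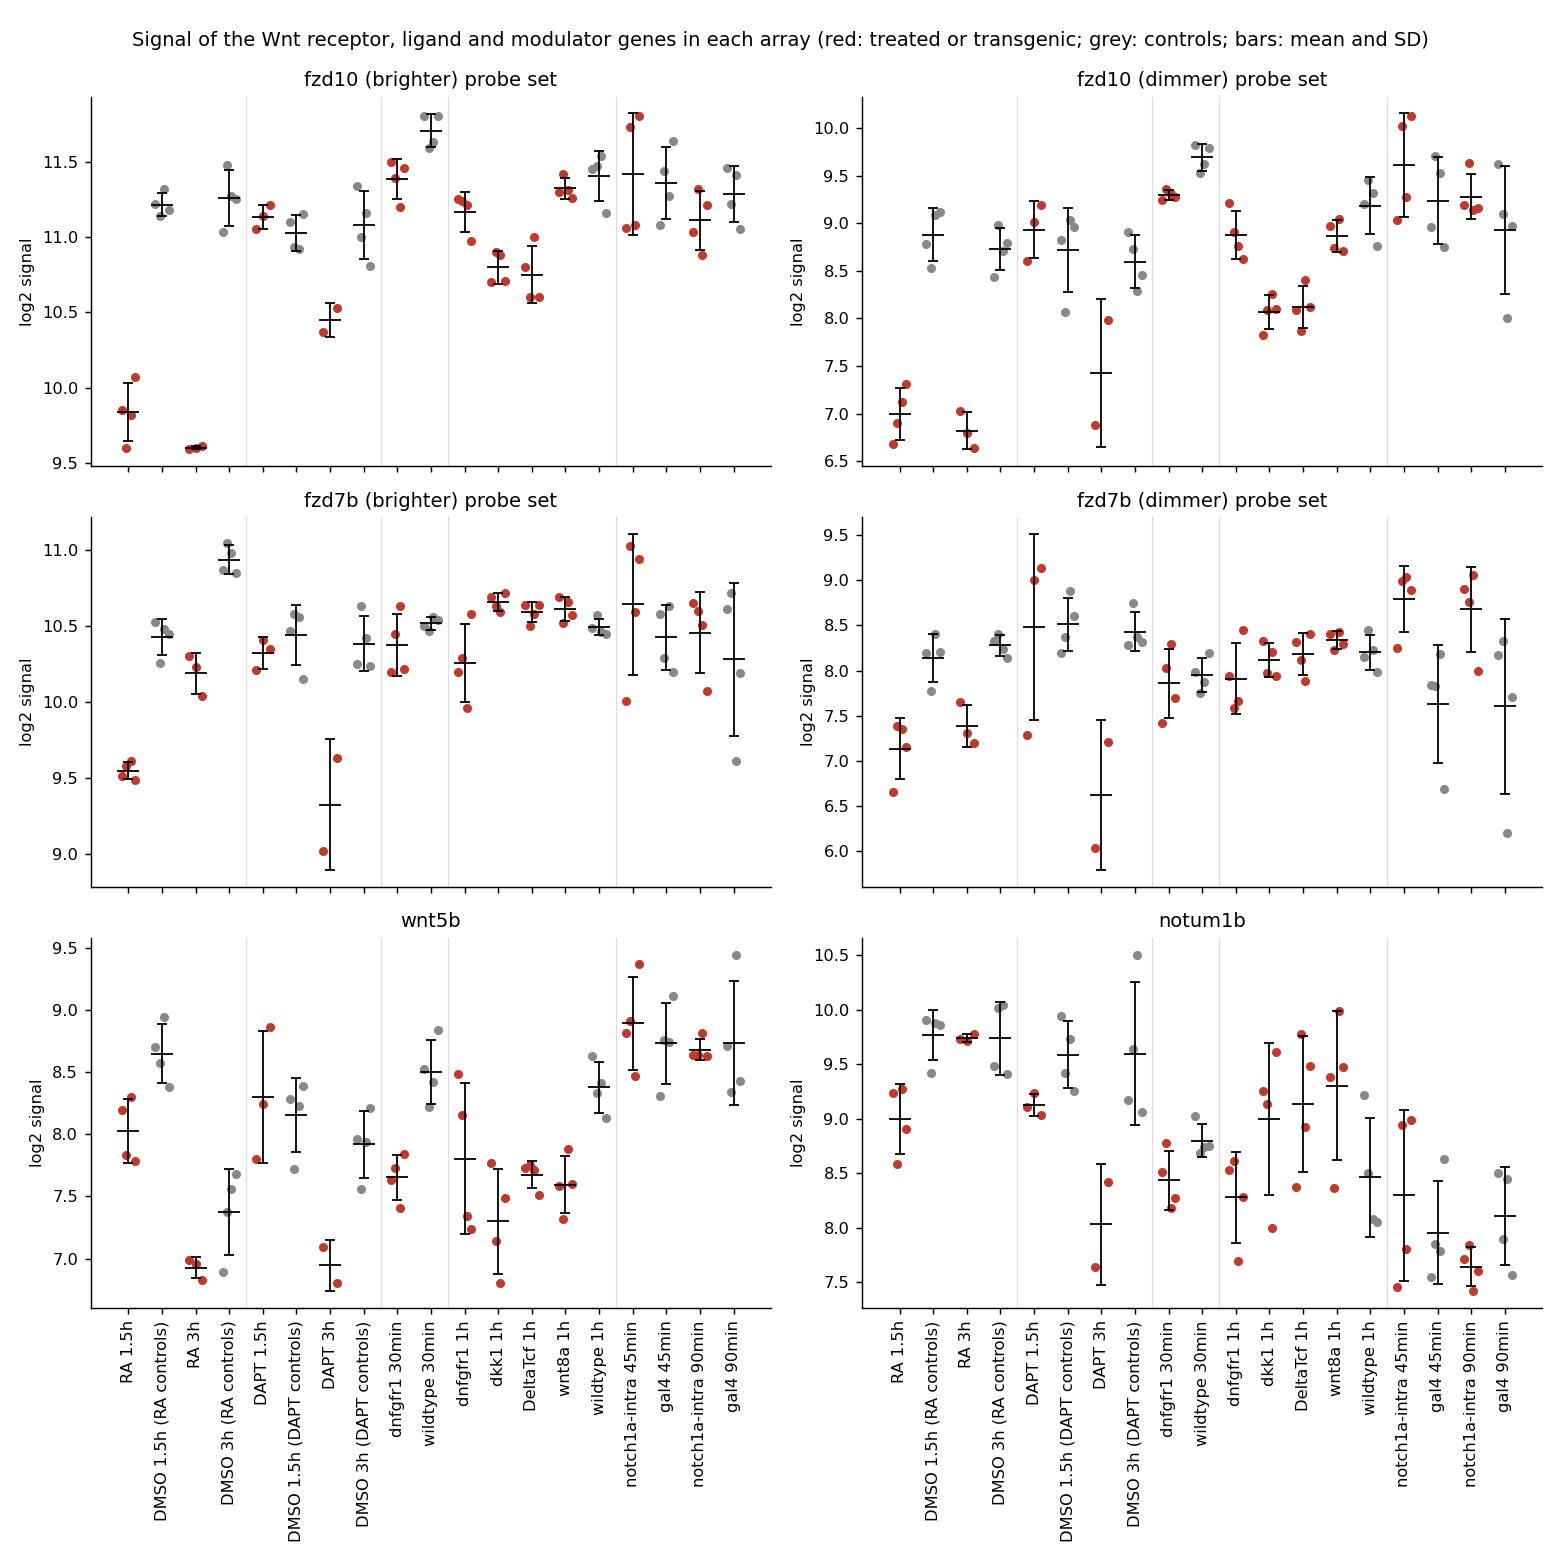
Log2 signal (vertical axes) of each of the 6 probe sets in every array of the 19 groups, with treated or transgenic arrays in red, control arrays in grey, and the group mean and SD as bars. The brighter fzd10 probe set falls to between 9.59 and 10.07 in the RA arrays and notum1b lies between 9.06 and 10.50 in the DMSO arrays.

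Both receptor genes were lower after RA, fzd10 at both times on both of its probe sets. In the 4 arrays after 1.5 h of RA, the brighter fzd10 probe set read 9.85, 9.60, 9.82 and 10.07, against 11.22, 11.14, 11.32 and 11.18 in DMSO. At 3 h it read 9.59, 9.60 and 9.61 with RA, against 11.03, 11.48, 11.27 and 11.25 in DMSO. Every RA array lay at least 1 log2 unit below every DMSO array of its time for fzd10. The fall was 2.6-fold at 1.5 h (-1.38 ± 0.13 SE, adjusted p = 3.98e-13) and 3.16-fold at 3 h (-1.66 ± 0.14, adjusted p = 3.11e-15). The dimmer fzd10 probe set differed by -1.88 at 1.5 h (adjusted p = 1.24e-08) and by -1.91 at 3 h (adjusted p = 4.26e-08). In bulk tissue, fewer cells of a type and less RNA per cell cannot be told apart.

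fzd7b also fell with RA. Its brighter probe set read 9.51, 9.58, 9.61 and 9.49 after 1.5 h of RA, against 10.53, 10.26, 10.48 and 10.45 in DMSO, and the groups did not overlap. At 3 h it read 10.30, 10.23 and 10.04 with RA, against 10.87, 11.05, 10.98 and 10.85 in DMSO, again without overlap. The differences were -0.88 ± 0.15 (adjusted p = 4.3e-05) and -0.75 ± 0.17 (adjusted p = 0.00164). The 3 h call was lost with median centring (-0.60, adjusted p = 0.0784). The 3 h DMSO controls had the highest mean of the 19 groups, 10.94, and lay 0.51 above the 1.5 h ones (adjusted p = 0.0421). The RA arrays at 3 h overlapped every other DMSO group (10.26 to 10.53 at 1.5 h for RA, 10.15 to 10.58 and 10.24 to 10.63 for DAPT). The dimmer probe set fell at 1.5 h (-1.01 ± 0.31, adjusted p = 0.0413), a call that 7 of the 8 leave-one-out fits lost, with adjusted p up to 0.156, and at 3 h its difference of -0.90 had adjusted p = 0.158. That difference at 3 h was called with array quality weights (-0.88, adjusted p = 0.00534) and in a fit of the compared groups alone (-0.90, adjusted p = 0.00408).

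The ligand and the modulator did not pass the test under RA with the settings used throughout. wnt5b averaged 8.03 ± 0.26 with RA and 8.65 ± 0.23 with DMSO at 1.5 h (SD, n = 4 each), a difference of -0.62 ± 0.22 (adjusted p = 0.111). At 3 h its difference was -0.45 (95% interval -0.93 to 0.04). notum1b averaged 8.99 ± 0.32 with RA and 9.77 ± 0.23 with DMSO at 1.5 h (SD, n = 4 each), a difference of -0.78 ± 0.32 (adjusted p = 0.187), while at 3 h its means were 9.74 with RA and 9.73 with DMSO. For both genes the arrays at 1.5 h did not overlap. With array quality weights both were called lower at 1.5 h, wnt5b at -0.61 (adjusted p = 0.0216) and notum1b at -0.82 (adjusted p = 0.0321), and notum1b was also called in a fit of the compared groups alone (-0.78, adjusted p = 0.0359). In all, 4 of the 6 probe sets were called at 1.5 h, where 4.34% of all probe sets tested were called, and 3 of 6 at 3 h, where 3.68% were. Non-overlapping arrays were seen for 6 of 6 at 1.5 h, against 12.7% of all tested, and for 4 of 6 at 3 h, against 16%. No probe set's RA effect was called as different between the times, where 0.721% of all tested were. Tail bud and presomitic mesoderm markers averaged 8.66 to 9.32 over the RA arrays and 9.19 to 9.59 over the DMSO arrays at 1.5 h, and 1 of 13 rose and 4 fell. Somite markers averaged 6.81 to 7.12 with RA and 7.57 to 8.04 with DMSO, and 5 of 9 fell. Muscle markers averaged 5.82 over the RA group and 6.75 over the DMSO group, without overlap of their arrays, and 3 of 8 fell, while 3 of 13 neural and 2 of 5 pronephros markers rose. At 3 h, somite markers averaged 6.98 to 7.50 with RA and 8.05 to 8.22 with DMSO, 3 of 9 fell, and of the 13 tail bud markers 1 rose and 3 fell. Of these others at 3 h, 1 of 8 muscle markers fell, and 2 of 13 neural and 2 of 5 pronephros markers rose. Germ cell markers averaged 5.11 to 5.56 with RA and 4.94 to 5.08 with DMSO at 1.5 h. At 3 h they averaged 5.61 to 5.82 and 5.17 to 5.28. Notochord markers averaged 4.82 to 5.42 with RA and 5.43 to 5.83 with DMSO at 1.5 h. Most genes of the germ cell, notochord and pronephros lists lay below the array median on average. Their part in the fall of the receptor genes was not tested.

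**Figure D2:**
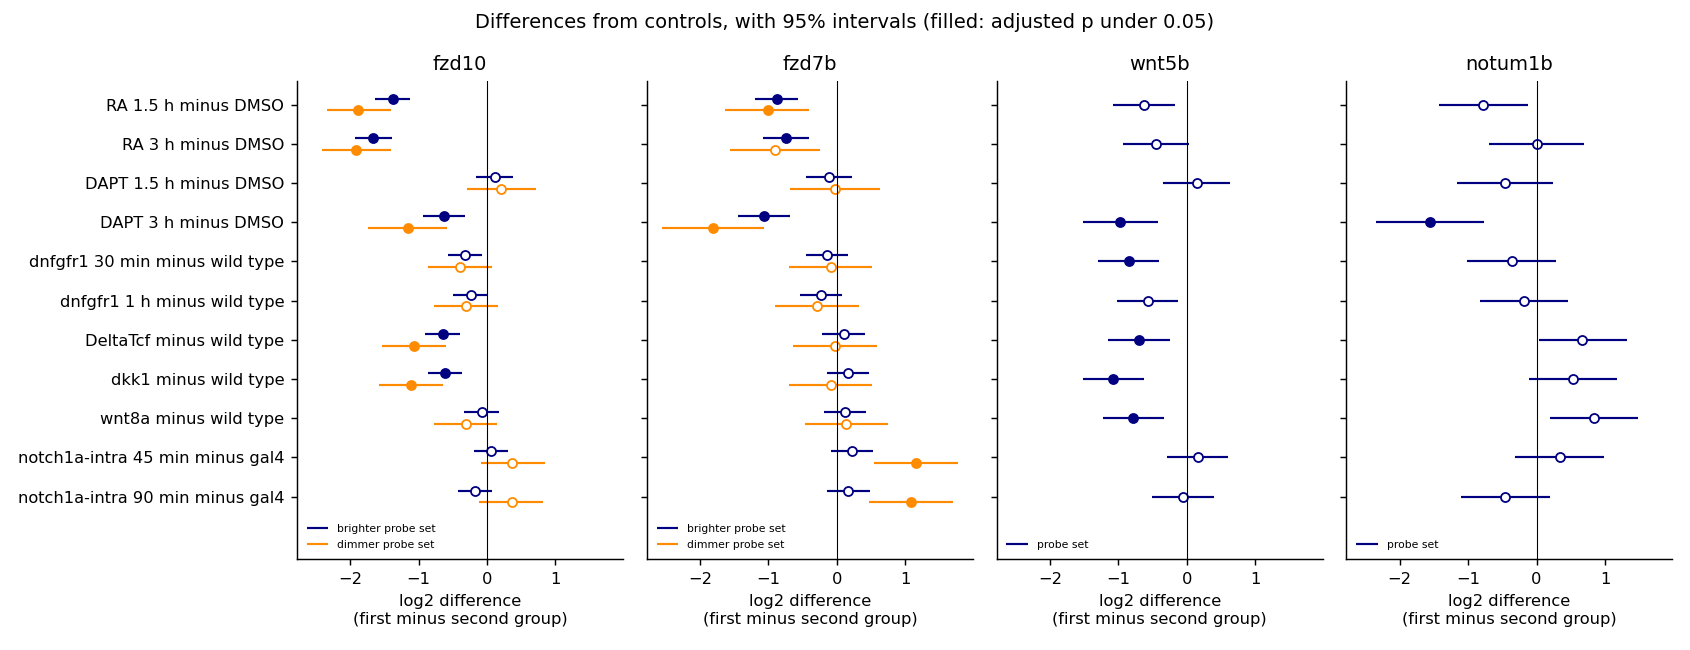
Difference in log2 signal (horizontal axes) for each gene in the 11 comparisons of a treated or transgenic group with its control, with 95% intervals and filled points where the adjusted p was under 0.05. fzd10 lies furthest to the left under RA, at -1.38 and -1.66 for the brighter probe set, and all 4 genes lie left of 0 for DAPT at 3 h.

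After 3 h of DAPT all 4 genes were lower than in DMSO, a result that rests on 2 DAPT arrays. The brighter fzd7b probe set read 9.02 and 9.63 with DAPT, against 10.25, 10.63, 10.42 and 10.24 with DMSO. For the brighter fzd10 probe set the values were 10.37 and 10.53 with DAPT, against 11.34, 11.00, 11.16 and 10.81. Both DAPT arrays lay below every DMSO array for either receptor, with replicate 1 the lower. fzd7b fell 2.09-fold (-1.06 ± 0.19, adjusted p = 0.000207) and fzd10 1.55-fold (-0.63 ± 0.15, adjusted p = 0.00747). The dimmer probe sets differed by -1.81 for fzd7b (adjusted p = 0.0017) and by -1.16 for fzd10 (adjusted p = 0.00838).

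wnt5b read 7.09 and 6.80 after 3 h of DAPT, against 7.96, 7.56, 7.94 and 8.21 in DMSO. notum1b read 7.64 and 8.42 with DAPT, against 9.17, 9.64, 10.50 and 9.06 in DMSO. Again neither gene's groups overlapped, and the DMSO arrays of notum1b were spread widely. wnt5b fell 1.96-fold (-0.97 ± 0.27, adjusted p = 0.0242) and notum1b 2.95-fold (-1.56 ± 0.40, adjusted p = 0.0112). So 6 of 6 probe sets were called, where 5.35% of all tested were, and 6 of 6 had arrays that did not overlap, where 20.8% of all tested had. All 6 calls were lost without DAPT replicate 1, when the lone array left is assumed to vary like the other groups. The values were then -0.76 for fzd7b (adjusted p = 0.0857), -0.55 for fzd10 (adjusted p = 0.148), -1.12 for wnt5b (adjusted p = 0.0924) and -1.17 for notum1b (adjusted p = 0.259), with -1.22 and -0.61 for the dimmer fzd7b and fzd10 probe sets. wnt5b also lost its call without DAPT replicate 2 (-0.83) or DMSO replicate 4 (-0.87), and notum1b without DMSO replicate 3 (-1.26).

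Marker genes differed in these arrays too. Tail bud and presomitic mesoderm markers averaged 8.34 to 8.52 over the DAPT arrays, against 9.04 to 9.46 in DMSO, with 4 of 13 called lower and 0 higher. Somite markers averaged 6.55 to 7.24 with DAPT and 7.30 to 7.80 with DMSO, also without overlap, and 2 of 9 fell. The 3 germ cell markers tested all rose, the list of 5 measured averaging 5.90 to 7.61 with DAPT and 5.01 to 5.29 with DMSO, with nanos3, ddx4, tdrd7a and dazl below the array median on average. Blood and endothelial markers averaged 6.08 to 7.72 with DAPT and 4.79 to 6.77 with DMSO. Their part in the result was not tested.

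At 1.5 h of DAPT none of the 6 probe sets was called, where 4.09% of all tested were. On the brighter probe set, fzd10 was at 11.05, 11.14 and 11.21 with DAPT, against 11.10, 10.93, 10.92 and 11.15 with DMSO. The brighter fzd7b probe set read 10.21, 10.41 and 10.35 with DAPT, against 10.47, 10.58, 10.56 and 10.15. These groups overlapped, and the intervals of the differences were -0.16 to 0.38 for fzd10 and -0.45 to 0.22 for fzd7b. Tested as a difference between the times, 3 h minus 1.5 h, the DAPT effect was called for 4 of 6 probe sets, where 3.96% of all tested were. It was -0.74 ± 0.20 (adjusted p = 0.0276) for fzd10 and -0.95 ± 0.25 (adjusted p = 0.0221) for fzd7b on the brighter probe sets. The calls were lost without DAPT 3 h replicate 1, with -0.66 for fzd10 (adjusted p = 0.134) and -0.64 for fzd7b (adjusted p = 0.243). The fzd10 call was also lost without DAPT 1.5 h replicate 3 (-0.70), DMSO 1.5 h replicate 2 (-0.71) or DMSO 3 h replicate 1 (-0.65). wnt5b (-1.12, adjusted p = 0.0655) and notum1b (-1.10, adjusted p = 0.249) did not pass for this contrast.

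In the Wnt manipulations, fzd10 separated the libraries labelled dkk1 and DeltaTcf from those labelled wnt8a, and wnt5b did not. The brighter fzd10 probe set read 10.70, 10.90, 10.88 and 10.71 with dkk1, 10.80, 10.60, 11.00 and 10.60 with DeltaTcf, and 11.30, 11.42, 11.31 and 11.26 with wnt8a, against 11.45, 11.47, 11.54 and 11.16 in wild type at 1 h. Every dkk1 and DeltaTcf array lay below every wnt8a and wild-type array, and the wnt8a arrays lay within the wild-type range. fzd10 fell 1.52-fold with dkk1 (-0.61 ± 0.13, adjusted p = 0.000172) and 1.57-fold with DeltaTcf (-0.65 ± 0.13, adjusted p = 8.43e-05). With wnt8a the difference was -0.08 (95% interval -0.33 to 0.17, adjusted p = 0.735). Compared directly, fzd10 was lower in dkk1 than in wnt8a (-0.52 ± 0.13, adjusted p = 0.0082) and lower in DeltaTcf than in wnt8a (-0.57 ± 0.13, adjusted p = 0.00355). dkk1 and DeltaTcf differed from each other by 0.05 (95% interval -0.20 to 0.30). Tail bud and presomitic mesoderm markers averaged 8.89 to 9.28 with dkk1, 8.92 to 9.33 with DeltaTcf and 9.39 to 9.58 with wnt8a, against 9.30 to 9.92 in wild type. Over all probe sets tested, 24.6% were called with dkk1, 20.6% with DeltaTcf and 16.2% with wnt8a. Of the 13 markers tested, 2 rose and 2 fell with dkk1, 0 rose and 2 fell with DeltaTcf, and 1 rose and 0 fell with wnt8a. Of 4 notochord markers, 1 rose and 2 fell with dkk1, 1 fell with DeltaTcf and 0 changed with wnt8a. Their part in the fzd10 result was not tested.

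The dimmer fzd10 probe set fell with dkk1 (-1.11, adjusted p = 0.000231) and DeltaTcf (-1.06, adjusted p = 0.00054), and differed by -0.31 with wnt8a (adjusted p = 0.412). Its direct differences from wnt8a were -0.80 for dkk1 (adjusted p = 0.0418), a call lost in all 8 leave-one-out fits (adjusted p 0.051 to 0.124), and -0.75 for DeltaTcf (adjusted p = 0.0691). Against wild type dissected at 30 min, an alternative added after the data were seen, the wnt8a libraries were lower in fzd10 too (-0.39 on the brighter probe set, adjusted p = 0.0169). Wild type itself differed by -0.30 between 1 h and 30 min (adjusted p = 0.162).

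wnt5b was lower in all 3 of these groups. It read 7.77, 7.14, 6.80 and 7.49 with dkk1, 7.73, 7.75, 7.71 and 7.51 with DeltaTcf, and 7.58, 7.32, 7.88 and 7.60 with wnt8a, against 8.63, 8.33, 8.41 and 8.13 in wild type. All 12 transgenic arrays lay below all 4 wild-type arrays. The falls were 2.11-fold with dkk1 (-1.08 ± 0.22, adjusted p = 0.000202), 1.63-fold with DeltaTcf (-0.70 ± 0.22, adjusted p = 0.0189) and 1.72-fold with wnt8a (-0.78 ± 0.22, adjusted p = 0.0103). The 3 comparisons share their wild-type arrays, and many other genes differed from these too, with 16.2% of all probe sets tested called even with wnt8a. Other differences between the transgenic lines and wild type cannot be told apart from the transgenes in these comparisons. The DeltaTcf call was lost without wild-type replicate 1 (-0.62, adjusted p = 0.0678) or DeltaTcf replicate 4 (-0.65, adjusted p = 0.0543). Between the transgenic groups wnt5b differed by -0.29 for dkk1 against wnt8a (95% interval -0.74 to 0.15), 0.08 for DeltaTcf against wnt8a (95% interval -0.37 to 0.53) and -0.37 for dkk1 against DeltaTcf (95% interval -0.82 to 0.07).

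fzd7b and notum1b did not pass the test in these groups, though notum1b did under some alternatives. The brighter fzd7b probe set averaged 10.66 with dkk1, 10.59 with DeltaTcf and 10.61 with wnt8a, against 10.49 in wild type, with intervals of the differences of -0.14 to 0.47, -0.21 to 0.41 and -0.19 to 0.43, and its dkk1 arrays (10.59 to 10.72) all lay above the wild-type ones (10.45 to 10.57). notum1b varied widely within each group, reading 9.25, 9.13, 8.00 and 9.61 with dkk1, 8.37, 9.78, 8.92 and 9.48 with DeltaTcf and 9.38, 8.36, 9.99 and 9.47 with wnt8a, against 9.22, 8.50, 8.08 and 8.05 in wild type. The groups overlapped. Under the settings used throughout, its differences were 0.53 for dkk1 (adjusted p = 0.238), 0.67 for DeltaTcf (adjusted p = 0.137) and 0.84 for wnt8a (adjusted p = 0.0669). The wnt8a difference was called with array quality weights (0.84, adjusted p = 0.0152), without wild-type replicate 1 (1.09, adjusted p = 0.0221) and without wnt8a replicate 2 (1.15, adjusted p = 0.0138), and that for DeltaTcf without wild-type replicate 1 (0.93, adjusted p = 0.0493). Calls were made for 3 of the 6 probe sets with dkk1, 3 of 6 with DeltaTcf and 1 of 6 with wnt8a, where the shares of all probe sets tested were 24.6%, 20.6% and 16.2%. In the direct comparisons they were 2 of 6 for dkk1 against wnt8a, 1 of 6 for DeltaTcf against wnt8a and 0 of 6 for dkk1 against DeltaTcf, where 3.28%, 2.53% and 3.48% of all tested were called.

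**Figure D3:**
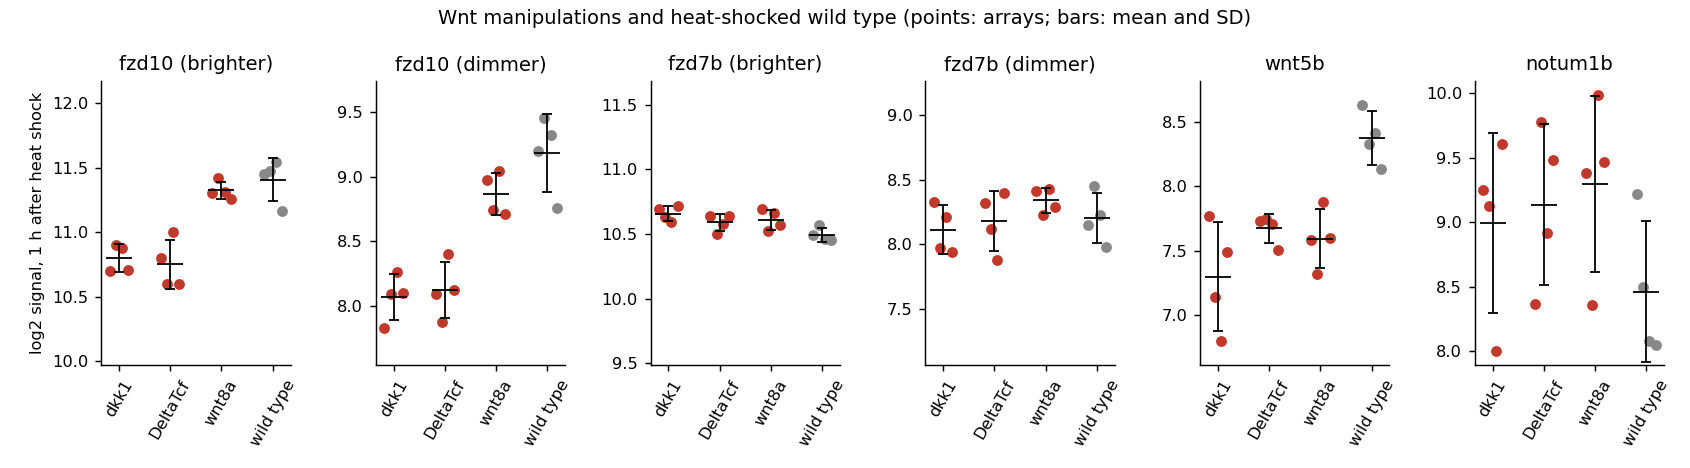
Log2 signal (vertical axes, each spanning the same range) of the 6 probe sets in the arrays labelled dkk1, DeltaTcf and wnt8a and in wild type, all at 1 h, with mean and SD as bars. The dkk1 and DeltaTcf arrays lie at or below 11.00 for the brighter fzd10 probe set and all wnt8a and wild-type arrays at or above 11.16, whereas wnt5b lies below wild type in all 3 transgenic groups.

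Under the dominant-negative Fgf receptor the ligand gene fell at the earlier time. wnt5b read 7.63, 7.73, 7.41 and 7.84 in dnfgfr1 at 30 min, against 8.52, 8.22, 8.42 and 8.84 in wild type, and the groups did not overlap. It was 1.8-fold lower (-0.85 ± 0.22, adjusted p = 0.0189), a call lost without dnfgfr1 replicate 3 (-0.77, adjusted p = 0.0832) or wild-type replicate 4 (-0.74, adjusted p = 0.101). At 1 h it read 8.48, 8.15, 7.34 and 7.24 in dnfgfr1, against 8.63, 8.33, 8.41 and 8.13 in wild type. Here replicates 1 and 2 of dnfgfr1 lay within the wild-type range and replicates 3 and 4 below it, and the difference of -0.57 did not pass (adjusted p = 0.169). It was called with array quality weights (-0.64, adjusted p = 0.0415) and without dnfgfr1 replicate 1 (-0.80, adjusted p = 0.043). Between the times the dnfgfr1 effect on wnt5b differed by 0.28 (1 h minus 30 min, 95% interval -0.36 to 0.91), and none of the 6 probe sets was called for that contrast, where 0.375% of all tested were.

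The brighter fzd10 probe set read 11.50, 11.39, 11.20 and 11.46 in dnfgfr1 at 30 min, against 11.80, 11.59, 11.63 and 11.80 in wild type. These arrays did not overlap, but the difference of -0.32 ± 0.13 did not pass the test (adjusted p = 0.18), nor did that of -0.24 at 1 h (adjusted p = 0.377). At 30 min it was called in a fit of the compared groups alone with the replicate block (-0.32, adjusted p = 0.0431). The dimmer fzd10 probe set was called at 30 min in a fit of the compared groups alone (-0.39, adjusted p = 0.0455). For the brighter fzd7b probe set the differences were -0.14 at 30 min and -0.23 at 1 h, and for notum1b -0.36 and -0.18. In all, 1 of 6 probe sets was called at 30 min, where 3% of all tested were, and 0 of 6 at 1 h, where 3.42% were. Tail bud and presomitic mesoderm markers averaged 8.69 to 9.38 in dnfgfr1 at 30 min, against 9.37 to 9.64 in wild type. Neural markers averaged 4.99 to 5.14 against 5.16 to 6.09 there, without overlap. At 1 h somite markers averaged 7.14 to 8.12 against 8.15 to 8.45, without overlap. All other marker lists overlapped, and their part was not tested.

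In the libraries labelled notch1a-intra, 1 of 6 probe sets was called at each time, the dimmer one of fzd7b, where 4.09% of all tested were called at 45 min and 6.87% at 90 min. At 45 min it read 8.25, 8.99, 9.04 and 8.89 in notch1a-intra, against 7.84, 7.83, 8.18 and 6.68 in gal4, without overlap. At 90 min it read 8.90, 8.76, 9.06 and 7.99, against 8.17, 8.33, 6.20 and 7.71 in gal4, with overlap. It rose 2.23-fold at 45 min (1.16 ± 0.31, adjusted p = 0.0165) and 2.11-fold at 90 min (1.08 ± 0.31, adjusted p = 0.0204). The replicate numbers were taken to pair the arrays at 45 min, which the labels do not state. With the replicate number as a block in a fit of these groups alone the value was 1.16 with adjusted p = 0.0989. The fit of these groups alone without the block gave 1.16 with adjusted p = 0.16, also not called. The 45 min call was also lost without gal4 replicate 4 (0.84), without notch1a-intra replicate 3 (1.08) and without the libraries with low notch1a, replicates 2 and 4 (1.01, adjusted p = 0.073), or without these replicates in both groups (0.63, adjusted p = 0.442). That at 90 min was lost without gal4 replicate 3 (0.61), or notch1a-intra replicate 1 (1.00) or 3 (0.95). It was also lost with array quality weights (0.66, adjusted p = 0.0628). The compared groups alone gave 1.08, not called without the block (adjusted p = 0.212) or with it (adjusted p = 0.178). Marker lists differed at 45 min without overlap, notch1a-intra against gal4, for muscle (6.54 to 6.77, 5.79 to 6.21) and notochord (6.11 to 6.24, 4.88 to 5.92). The same held for blood and endothelium (4.95 to 6.06, 6.24 to 7.48). At 90 min only the tail bud list did (9.04 to 9.23, 9.34 to 9.63). All other lists overlapped, and their part in these results was not tested.

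The brighter fzd7b probe set did not pass, at 0.22 (adjusted p = 0.482) and 0.17 (adjusted p = 0.595). Within each array, the dimmer minus the brighter fzd7b signal averaged -1.85 in notch1a-intra and -2.79 in gal4 at 45 min, and -1.78 in notch1a-intra and -2.69 in gal4 at 90 min. That gap was narrower in notch1a-intra by 0.94 and 0.91, with no overlap between groups at either time, and each had a two-sided exact permutation p = 0.0286, the smallest that 4 against 4 allows (adjusted p = 0.126 over 22 such tests). For fzd10 the same measure differed without overlap for RA at 1.5 h (-0.50), DeltaTcf (-0.41) and dkk1 (-0.50), with the same p, where both of its probe sets fell. For fzd7b the gap averaged -2.70 (-2.99 to -2.41) with DAPT at 3 h and -1.95 (-2.05 to -1.88) with DMSO, a difference of -0.75 without overlap, with exact permutation p = 0.0667, the smallest these group sizes allow (adjusted p = 0.183). The fzd7b gap thus differed without overlap in the Notch comparisons and with DAPT at 3 h, but did not pass after adjustment. The lowest adjusted p of the 22 permutation tests was 0.126. Which fzd7b probe set follows the fzd7b transcript was not tested.

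The other members split by replicate at 45 min. fzd10 (brighter probe set) read 11.06, 11.73, 11.08 and 11.80 in notch1a-intra, against 11.08, 11.44, 11.27 and 11.64 in gal4. notum1b read 7.46, 8.94, 7.80 and 8.99 in notch1a-intra, against 7.55, 7.85, 7.79 and 8.63 in gal4. For both genes replicates 2 and 4 of notch1a-intra, those with low notch1a, were the high ones, and replicates 1 and 3 lay at or below 11.08 for fzd10 and 7.80 for notum1b. The differences over all 4 replicates were 0.06 for fzd10 (adjusted p = 0.845) and 0.34 for notum1b (adjusted p = 0.627). Within the pairs by replicate number, notch1a-intra minus gal4 was -0.02, 0.29, -0.18 and 0.16 for fzd10 and -0.09, 1.08, 0.00 and 0.37 for notum1b. The gal4 arrays numbered 2 and 4 were the higher ones of their group too. With replicates 2 and 4 left out of both groups the differences were -0.10 for fzd10 (adjusted p = 0.792) and -0.04 for notum1b (adjusted p = 0.978). At 90 min, where all 4 libraries had notch1a between 11.78 and 11.93, the differences were -0.17 for fzd10 (adjusted p = 0.478) and -0.46 for notum1b (adjusted p = 0.462). wnt5b differed by 0.16 at 45 min and -0.05 at 90 min. Between the times the effect was called for none of the 6 probe sets, where 0.691% of all tested were.

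**Figure D4:**
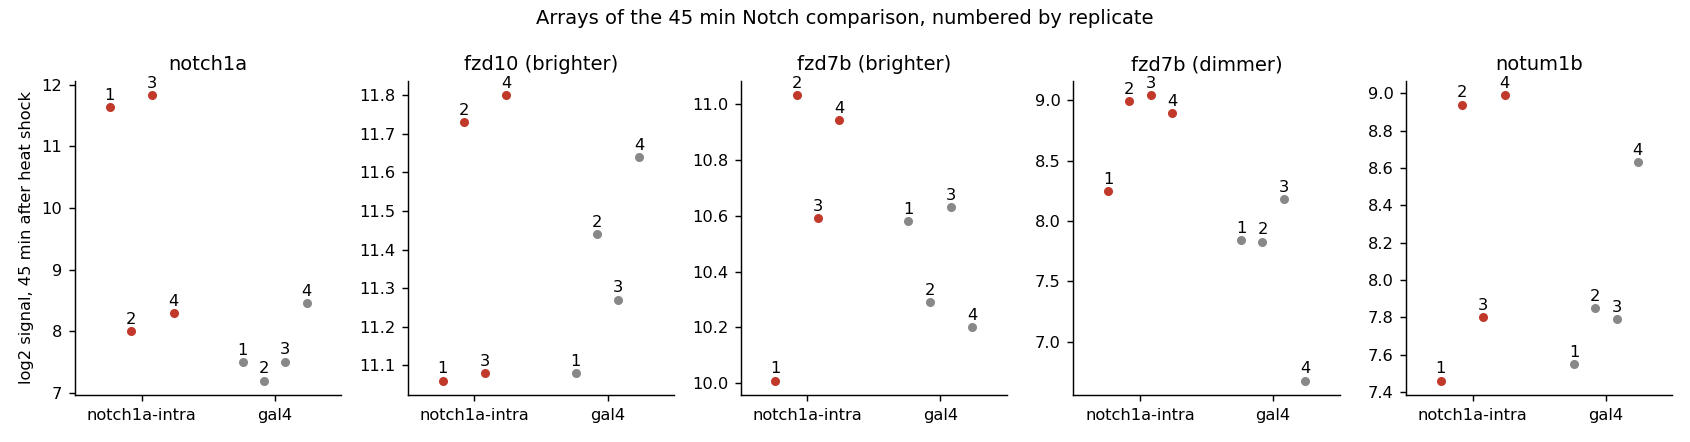
Log2 signal (vertical axes) of notch1a and of 4 member probe sets in the arrays labelled notch1a-intra (red) and gal4 (grey) at 45 min, with the replicate number above each point. Replicates 2 and 4 of notch1a-intra have notch1a at 8.00 and 8.29, and they are the highest arrays for the brighter fzd10 probe set and for notum1b.

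Between the later and the earlier controls, only the DMSO groups for RA held a called member. wnt5b read 6.89, 7.37, 7.56 and 7.68 after 3 h of DMSO, against 8.70, 8.57, 8.94 and 8.38 after 1.5 h, and the groups did not overlap. It was 2.41-fold lower at 3 h (-1.27 ± 0.22, adjusted p = 0.000164). In the DMSO groups for DAPT the same interval gave -0.24 (95% interval -0.68 to 0.21, adjusted p = 0.606). The brighter fzd7b probe set was higher at 3 h in the DMSO groups for RA by 0.51 ± 0.15 (adjusted p = 0.0421), a call lost with any of the 8 arrays left out (adjusted p 0.0567 to 0.129). So 2 of 6 probe sets were called there, where 4.37% of all tested were. None was called between DMSO times for DAPT, between wild type at 1 h and 30 min or between gal4 at 90 min and 45 min, where 4.83%, 4.37% and 5.12% of all tested were.

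The other genes of the pathway were read from lists of ligands, receptors, extracellular modulators, intracellular components and posterior genes known to respond to Wnt signalling, each gene by its brightest probe set. Of 4 ligand genes tested, wnt4b alone rose with RA, by 1.36 at 1.5 h (adjusted p = 3.65e-08) and 2.32 at 3 h (adjusted p = 3.32e-15), where wnt5b did not pass. wnt10a fell with DAPT at 3 h (-1.24, adjusted p = 0.00335) beside wnt5b, on the same 2 DAPT arrays. Both wnt4b and wnt10a were dim, with mean levels of 4.81 and 4.59, where the lowest value possible is about 4. These means lie below the mean array median of 5.58, and the filter asks for only 3 arrays above the median. They may have passed it only through the groups where they are high, which was not examined. Of 8 receptor genes, 2 fell and 0 rose after 1.5 h of RA, and these were fzd10 and fzd7b. At 3 h the same genes fell and ror2, a receptor for Wnt5 ligands, rose by 0.84 (adjusted p = 5.26e-05). With DAPT at 3 h, ror2 fell by 1.11 (adjusted p = 2.13e-05) beside fzd7b and fzd10. The median difference over the 8 receptor genes, which include fzd10 and fzd7b themselves, was -0.35 in that comparison, against -0.00 over all probe sets tested. Of these 8 genes, 5 were not called. ryk, a further Wnt receptor, was called only for dnfgfr1 at 1 h among the 11 comparisons with controls (-1.11, adjusted p = 0.00485). With dkk1 or DeltaTcf, fzd10 was the only receptor gene called of the 8, and with wnt8a none was. The shares called over all probe sets tested were 24.6% with dkk1, 20.6% with DeltaTcf and 16.2% with wnt8a. They were 4.34% and 3.68% for RA at 1.5 h and 3 h, and 5.35% for DAPT at 3 h.

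Of 9 extracellular modulator genes tested, 2 fell after 1.5 h of RA, and at 3 h 2 rose and 2 fell. These were dkk3b (-1.54 and then 1.31) and the sulfatase gene sulf1 (-0.47 and -1.09) at both times, and at 3 h the Wnt antagonist genes sfrp1a (1.46) and wif1 (-1.67). Of all probe sets tested, 4.34% were called at 1.5 h and 3.68% at 3 h. dkk3b was dim, with a mean level of 5.40. In its DMSO controls for RA it was itself lower at 3 h than at 1.5 h (-1.62, adjusted p = 0.000562). notum1b was the only one of the 9 called with DAPT at 3 h, where 5.35% of all tested were. dkk1b was the only one called with dkk1 or DeltaTcf, where 24.6% and 20.6% of all tested were. It rose by 7.62 and 7.37. The dkk1 libraries carry a dkk1 transgene, so that rise checks the label and is not read as a response. The rise in DeltaTcf is why those libraries are named by their label only, and it is not read as a response either. dkk1b fell by 1.33 in notch1a-intra at 90 min (adjusted p = 0.00835).

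The lists of 25 intracellular components and 21 posterior Wnt-responsive genes tested share axin2 and lef1. The posterior list also holds all of the 13 tail bud and presomitic mesoderm markers but dld, so counts from these lists are not separate observations. With DAPT at 3 h, the posterior genes that fell, tbx16l, tbx16, msgn1 and her7, are the tail bud markers that fell. axin2, a feedback inhibitor and Wnt target, fell with dkk1 (-3.54), DeltaTcf (-3.38) and wnt8a (-1.14). The Wnt target sp5a fell with dkk1 (-2.91) and DeltaTcf (-2.72). Of the 21 posterior genes, 1 rose and 7 fell with dkk1, 1 rose and 6 fell with DeltaTcf, and 1 rose and 2 fell with wnt8a, with medians of -0.73, -0.46 and -0.09. Over all probe sets tested, 24.6%, 20.6% and 16.2% were called in these comparisons, with medians of -0.01, 0.00 and 0.01. In the direct comparisons with wnt8a, 4 of 21 fell for dkk1 and 4 for DeltaTcf, axin2, sp5a and sp5l in both, as the brighter fzd10 probe set did. Against the same shares, of the 25 intracellular genes 3 rose and 7 fell with dkk1, 2 rose and 5 fell with DeltaTcf, and 3 rose and 5 fell with wnt8a, and axin1, a scaffold of the complex that degrades beta-catenin, fell in all 3 as axin2 did. axin2 also fell in dnfgfr1 at 30 min (-1.38, adjusted p = 0.000723), where wnt5b was called. In notch1a-intra at 90 min, where wnt5b was not called, axin2 was lower than in gal4 (-1.49, adjusted p = 9.94e-05). That gal4 group was itself 0.99 above gal4 at 45 min in axin2 (adjusted p = 0.0173). After 1.5 h of RA, 3 of the 21 posterior genes rose and 6 fell, among them vox (-2.22), sp5a (-2.02) and msgn1 (-0.47), while myca rose by 1.71. Of all probe sets tested, 4.34% were called there and 5.35% with DAPT at 3 h. With DAPT at 3 h, 4 of the 21 fell and 0 rose, among them the presomitic mesoderm genes tbx16l (-1.04) and tbx16 (-1.16) and the segmentation clock gene her7 (-2.16), and in this comparison the polarity and Dishevelled genes prickle2b (-0.86) and dvl2 (-0.80) fell of the 25. prickle1b rose with RA by 0.72 at 1.5 h and 1.16 at 3 h.

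Over the 19 group means, the paired probe sets of a gene ran alike, with Pearson r = 0.96 for fzd10 and 0.80 for fzd7b. fzd10 ran with fzd7b at 0.61 and with wnt5b at 0.57, and notum1b with fzd10 at -0.26 and with wnt5b at -0.36, all on the brighter probe sets. Among 7142 named probe sets, the closest to the brighter fzd10 were hoxa10b (0.91), hoxc6a (0.90), efnb2b (0.90) and phc2a (0.88). The dimmer fzd10 was closest to kdm7aa (0.94), hoxa10b (0.92), hoxa2b (0.90) and vox (0.89). For the brighter fzd7b they were nrarpa (0.82), foxc1b (0.81), rftn2 (0.81) and myf5 (0.79), and for the dimmer sypb (0.80), ppp1r2 (0.75), nrarpa (0.74) and cited4b (0.74). For wnt5b they were rarga (0.89), rars1 (0.88), dvl3a (0.87) and ube2q1 (0.85), and for notum1b ddx19b (0.90), msl1b (0.87), pomgnt1 (0.87) and utp25 (0.85). hoxa10b for fzd10 and nrarpa for fzd7b were found with both probe sets. These correlations describe 19 points that share heat shock, vehicle and control arrays.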

How the data were processed

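Expression was measured on Affymetrix zebrafish arrays hybridised with labelled RNA from 72 tissue samples. The authors deposited linear intensity values. Per the submitters' processing notes they are MAS5 signals (version not given in the sources used here). Each array of the deposited intensity values had a mean of 150 after its highest and lowest 2% were trimmed. Array medians of log2 signal spanned 0.738, so the arrays were quantile normalized after a pseudocount of 16 was added and log2 taken, which understates changes of dim genes. The number of arrays limits the precision.

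Probe sets above the array median on at least 3 arrays were tested, 10126 in all. Symbols came from the platform annotation, updated through a RefSeq gene table of GRCz12tu (10711 of 15502 matched by identifier, 1 symbol updated). limma (R 4.3.3, limma 3.58.1, statmod 1.5.0) fitted 19 group means over 72 arrays with trend and robust moderation. All adjusted p for genes come from this two-sided test with Benjamini-Hochberg adjustment over the probe sets tested within each of 18 comparisons and 4 contrasts between times, at a threshold of 0.05. "Called" means past it. Folds are 2 to the power of the log2 difference. The fit was tested on simulated data with known changes. P-values of the limma test rest on the spread between arrays within groups, pooled over all 19 groups and moderated. They do not rest on the spread of the compared groups alone.

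The members and lists were chosen with earlier results of these data known. Named list genes are among the called genes with the 4 smallest p per list in each treatment or Wnt group comparison, and genes of like pattern are the 4 with the highest Pearson correlation. Deviations from group means of same-numbered arrays correlated above 0.1 in all pairs only for notch1a-intra and gal4 at 45 min (0.21 to 0.31), so numbers count as pairing there, from the data and not from the labels. Alternatives were other scalings, a pseudocount of 1 or 64, a stricter filter or none, the compared groups alone with or without a replicate block, array quality weights, plain moderation and each array left out. Added after the data were seen were fits without replicates 2 and 4 at 45 min, of notch1a-intra alone or of both groups, and wild type at 30 min as the control of the Wnt groups. Left out were 115 control probe sets. No sequence or coordinate is given.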

Additional observations from a re-analysis of the deposited data

Results flagged for a closer look

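In 5 of 96 sets of 4 arrays, 1 array stood apart from the other 3 by Dixon's test, and chance alone gives about 1 in 20. For the brighter fzd10 probe set it was replicate 4 of dnfgfr1 at 1 h, at 10.97 where the others lay between 11.21 and 11.25. For the dimmer one it was replicate 2 of notch1a-intra at 90 min, at 9.63 against 9.14 to 9.19. For wnt5b it was replicate 4 of DeltaTcf, at 7.51 against 7.71 to 7.75, the array without which the DeltaTcf call was lost. Replicate 3 of notch1a-intra at 90 min read 8.81 for wnt5b against 8.63 to 8.64. For notum1b it was replicate 2 of the 1.5 h DMSO group for RA, at 9.42 against 9.86 to 9.90.

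The DAPT effect differed between 3 h and 1.5 h for both receptor genes by the test of that difference. The difference was -0.74 and -1.38 for the brighter and dimmer fzd10 probe sets and -0.95 and -1.78 for those of fzd7b, and each was lost without DAPT 3 h replicate 1.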

How the results depend on the processing

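Of 132 member differences, 32 were called, and 13 of these were kept in all alternatives run, among them fzd10 under RA, dkk1 and DeltaTcf, fzd7b under RA at 1.5 h and wnt5b with dkk1 and wnt8a. No difference called with the settings used throughout or in an alternative reversed, while 43 uncalled ones changed sign under an alternative. Of the 100 uncalled ones, 79 were called in no alternative. Median centring ended the calls of fzd7b for RA at 3 h (-0.60), fzd10 for DAPT at 3 h (-0.60), fzd10 for dkk1 against wnt8a (-0.50), and the difference of the DAPT effect between times for fzd10 (-0.57) and fzd7b (-0.82). With array quality weights, DAPT at 3 h was no longer called for fzd10 (-0.63), wnt5b (-1.01) and notum1b (-1.36), nor the effect between times for fzd10 (-0.77) and fzd7b (-0.97). Fitted with the compared groups alone these were -0.63, -0.97, -1.56, -0.74 and -0.95, not called. With the replicate block the values not called were -0.72 for fzd10 and -0.81 for wnt5b, and -0.74 and -0.94 between times. For RA the block fit added calls for wnt5b (-0.62, adjusted p = 0.0353) and notum1b (-0.78, adjusted p = 0.0144) at 1.5 h and the dimmer fzd7b at 3 h (-0.94, adjusted p = 0.0271). In these comparisons no same-numbered arrays correlated above 0.1. The deposited scaling gave -0.63 for fzd10 between times. The rise of fzd7b in DMSO at 3 h was not called with the deposited scaling (0.43), median centring (0.49), no filter or plain moderation (0.51 each). The fits of the compared groups alone hold fewer arrays, and the cause of the other changes was not tested. Over all probe sets, the count called for DAPT at 3 h was 542, against 315 with median centring, 78 with the compared groups alone and 35 with array quality weights.

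Array quality weights gave notch1a-intra replicates 1 and 3 at 45 min weights of 0.275 and 0.328 and replicates 2 and 4 weights of 2.06 and 2.23. In gal4 at 45 min replicates 1 and 3 had 2.32 and 2.2, and replicates 2 and 4 had 0.361 and 0.291. The weighted fit thus mostly set the libraries with low notch1a against gal4 replicates 1 and 3. With these weights fzd10 (0.47), fzd7b (0.34), wnt5b (0.51) and notum1b (1.07) were called higher there. Without replicates 2 and 4 of both groups, their differences were -0.10, -0.31, 0.11 and -0.04, none called. With single arrays left out, the differences ranged as follows. fzd10 ran between -1.46 and -1.30 for RA at 1.5 h, -1.74 and -1.59 at 3 h, -0.72 and -0.54 for DAPT at 3 h, -0.69 and -0.56 for dkk1, -0.73 and -0.60 for DeltaTcf, -0.56 and -0.49 for dkk1 against wnt8a, -0.65 and -0.52 for DeltaTcf against wnt8a, and -0.83 and -0.65 for DAPT between times. fzd7b ran between -0.94 and -0.85 for RA at 1.5 h, -0.81 and -0.68 at 3 h, -1.36 and -0.76 for DAPT at 3 h, -1.25 and -0.64 between times, and 0.45 and 0.54 for DMSO. wnt5b ran between -1.12 and -0.83 for DAPT at 3 h, -0.94 and -0.74 for dnfgfr1 at 30 min, -1.23 and -0.91 for dkk1, -0.78 and -0.62 for DeltaTcf, -0.88 and -0.69 for wnt8a, and -1.37 and -1.11 for DMSO. notum1b ran between -1.95 and -1.17 for DAPT at 3 h. Groups of 2 to 4 arrays limit what differences could be called.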
